A study of Arabidopsis thaliana with 6 samples.

Results

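The transcriptomes of Can-0, an Arabidopsis thaliana accession from the Canary Islands, and of Col-0, the accession behind the reference genome, were compared in seedlings and again in roots. The quantity described here is the organ contrast, the Can-0 minus Col-0 difference in seedling minus the Can-0 minus Col-0 difference in root, on the log2(RPKM + 1) scale. A positive organ contrast means that Can-0 stood higher relative to Col-0 in seedlings than in roots, and a negative one the reverse. Genes were taken where at least 1 seedling library and at least 1 root library reached 5 RPKM, which 11729 of 28775 features did. RPKM, the unit the authors deposited, divides the reads of a gene by the length of its exon model and by all mapped reads of the library.

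The 4 libraries were Can-0 seedling and Col-0 seedling, both of 11-day seedlings grown on soil, and Can-0 root and Col-0 root, both of 10-day roots grown on plates. A further pair of libraries held floral buds at stage 12 of Can-0 and of Col-0 grown on soil, and is used here only to place the organ contrast beside another organ. Both accessions are natural inbred lines with no transgene or treatment in the labels, and all plants grew under 16 hours of light and 8 hours of dark at 20 C. Each group was 1 library of polyadenylated RNA, so no value below has a replicate and no difference was tested. Seedlings and roots also differed in growth medium and in sequencing run (33 for seedlings, 40 for roots), and organ, medium and run cannot be told apart. For floral buds the Can-0 library was of run 35 and the Col-0 library of run 36. Accession and run cannot be told apart there. In bulk RNA of this kind fewer cells of a type and less RNA per cell cannot be told apart either.

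A transcript can differ between accessions everywhere it is made, as when an allele is deleted or rearranged, or only where or when a particular regulator, signal or growth condition acts on it. An accession difference of equal size in both organs cancels in the organ contrast. One that has the same direction in both but unequal size does not cancel, as for AT2G25450 and FLC below. Many of the genes met below belong to pathways that respond to the surroundings or the hour: camalexin, the indole phytoalexin of Arabidopsis, glucosinolates, the sulfur-rich defence compounds that myrosinases break down, cold-regulated proteins, the salicylic acid and jasmonate defence pathways, and the circadian clock, in which morning-phased and evening-phased genes repress each other in turn.

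Depth was alike in the 4 libraries. The step between small RPKM values put the mapped reads at 21360000 to 22580000, so that 5 RPKM in a gene of 1 kb stood for 107 to 113 reads. The counting error of the organ contrast that follows from these depths, taken as the 95% interval on either side, had a median of 0.20 over all genes and 0.26 over the 122 genes with an organ contrast of 2 or more in size, with a highest value of 0.62. It covers counting of reads only, because PCR copies of a molecule cannot be recognised in these libraries, and it says nothing of the spread between plants. Differences on this scale also understate the change of genes near 0 RPKM in a library.

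For most genes the organ contrast was small. That includes the many genes that differed little between accessions in either organ. The median organ contrast was 0.09, with the 5th and 95th percentiles at -0.62 and 0.90. A value of at least 2 was reached by 94 genes (0.801% of the 11729) and a value of at most -2 by 28 genes (0.239%). At a size of 1 the counts were 457 genes (3.90%) and 239 genes (2.04%), together 5.93% of the genes, and at a size of 2 the 122 genes made 1.04%. The shares of 3.90% and 2.04% stand beside every list or family count at a size of 1 below. Positive organ contrasts were thus 77% of those past 2 and 65.7% of those past 1. That split depended on scaling: with quantile-normalised values 79 genes lay at 2 or more and 40 at -2 or less (66.4% positive), and 373 and 318 lay past 1 (54.0% positive). The filter also shapes these genes. All 4 libraries reached 5 RPKM in 87.6% of the 11729 genes, but in 33 of the 94 and in 11 of the 28, so many of them entered through the library in which they were high. At the edge of the filter, AT3G12860 entered with 5.00042 RPKM in the Col-0 seedling library (organ contrast -0.48), while AT2G43240 with at most 4.9992 RPKM in the seedling libraries did not (0.42). At the edge of a size of 2, UMAMIT17 had 2.02 and HSPRO2 -2.01 inside it, and AT2G35810 had 1.996 and GASA1 -1.97 outside.

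The 122 genes fell into 4 patterns. In 24 (0.205% of all genes) the accession difference was at least 1 in both organs with opposite sign, and in 20 of these Can-0 was higher in seedling and lower in root. For comparison, 220 of all genes (1.88%) differed by at least 1 in both organs with the same sign. In 41 of the 122, called seedling only, the difference was at least 2 in size in seedling and under 1 in root, with Can-0 higher in 34 of them. In 21, called root only, it was at least 2 in size in root and under 1 in seedling, with Can-0 lower in 15 and higher in 6. The remaining 36 met none of these limits and are called graded, of which 25 had a positive and 11 a negative organ contrast. Over all genes, the seedling difference was at least 1 in 419 (3.57%) and at most -1 in 306 (2.61%), and the root difference was at least 1 in 169 (1.44%) and at most -1 in 302 (2.57%). At a size of 2 the seedling counts were 100 (0.853%) and 94 (0.801%) and the root counts 50 (0.426%) and 85 (0.725%).

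**Figure D1:**
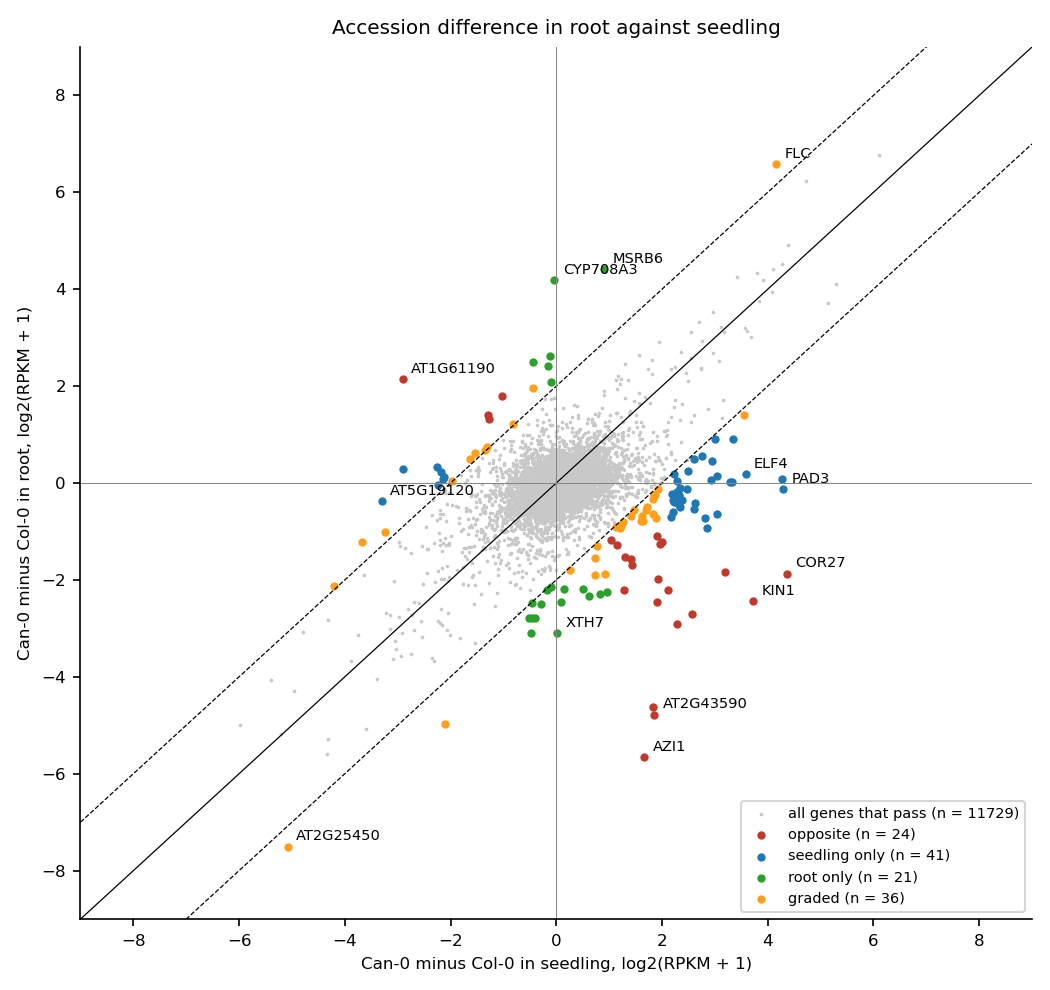
Each point is 1 of the 11729 genes, with the Can-0 minus Col-0 difference in seedling on the x axis and in root on the y axis, both on the log2(RPKM + 1) scale. The solid line marks equal differences, the dashed lines an organ contrast of 2 in size, and colours the 24 opposite, 41 seedling only, 21 root only and 36 graded genes; AZI1 lies lowest on the right and CYP708A3 and MSRB6 near the top.

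Roots of Can-0 held less transcript of shoot photosynthesis markers than roots of Col-0. The values are given here because a lower Can-0 root value makes an organ contrast more positive. Summed over 18 photosynthesis markers, Can-0 roots had 130.0 RPKM and Col-0 roots 307 RPKM, against 47187 RPKM in Can-0 and 62451 RPKM in Col-0 seedlings. The root sums were 0.276% of the seedling sum in Can-0 and 0.491% in Col-0, and 17 of the 18 genes were lower in Can-0 roots. All 18 were also lower in Can-0 seedlings. Of the 18, 14 passed the filter, with a median organ contrast of 0.93, and 5 reached 1. Among those that did not pass, LHCB1.1, RBCS1B and LHCB1.4 had -1.86, -0.66 and -0.48, and LHCB2.1 had 0.10. Both values past 2 belonged to light harvesting and carbon fixation: the antenna gene LHCB1.3, which has a near-identical copy and an antisense gene over it, had 3.89 RPKM in Can-0 against 32.6 RPKM in Col-0 roots, and RBCS1A, a Rubisco small subunit, had 2.26 RPKM in Can-0 against 14.1 RPKM in Col-0 roots. Applied gene by gene, the same shares of the seedling level equalled at least 25% of the root value in either accession for 69 of all genes (0.588%), for 6 of the 94 and for 2 of the 28. Those 8 were LHCB1.3, RBCS1A, FBA2, GRP-3, CYP71B11, AZI1, AT1G61190 and MLP28. Without genes at this level 88 genes lay at 2 or more and 26 at -2 or less, a count added after the data had been seen. Root hair markers were also lower in Can-0 roots, at 84.4 RPKM summed over 8 genes in Can-0 and 133 RPKM in Col-0 roots, with 7 of 8 lower in Can-0 roots, and 6 of the 8 listed at 0 in each seedling library. Endodermis markers summed to 592 RPKM in Can-0 and 612 RPKM in Col-0 roots over 14 genes, and meristem markers to 78.7 RPKM in Can-0 and 70.8 RPKM in Col-0 roots over 6. In seedlings the endodermis sums were 8.39 RPKM in Can-0 and 11.9 RPKM in Col-0, and the meristem sums 13.2 RPKM and 16.7 RPKM. The seedling libraries thus held little root hair and endodermis transcript, and the labels do not give their share of root tissue. The part of these marker levels in the results was not tested.

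The highest organ contrasts came from defence and stress genes that were higher in Can-0 seedlings and lower in Can-0 roots. AZI1 (AT4G12470), a proline-rich protein of the lipid transfer family that acts in systemic acquired resistance, had 13.8 RPKM in Can-0 and 3.65 RPKM in Col-0 seedlings, and 0.109 RPKM in Can-0 and 54.9 RPKM in Col-0 roots. Its organ contrast was 7.32 ± 0.38 (95% counting error), and the root values were the farther apart. With a pseudocount of 0.5 the organ contrast of AZI1 was 8.29, and with one of 5 it was 4.67. Its neighbour on chromosome 4, EARLI1 (AT4G12480), a proline-rich protein of the same kind, had 6.66 RPKM in Can-0 and 1.17 RPKM in Col-0 seedlings, and 4.46 RPKM in Can-0 and 134 RPKM in Col-0 roots, an organ contrast of 6.45 ± 0.45. An antisense gene overlaps EARLI1, and how the authors' counting used strand is not given in the sources used here. AT2G43590, annotated as a chitinase family protein, an enzyme class that cuts fungal cell wall chitin, had 48.3 RPKM in Can-0 and 12.6 RPKM in Col-0 seedlings, and 3.90 RPKM in Can-0 and 134 RPKM in Col-0 roots. All 3 were thus at their highest in Col-0 roots and at their lowest in Can-0 roots or Col-0 seedlings. Their seedling differences were 1.67, 1.82 and 1.86, and their root differences -5.66, -4.63 and -4.78.

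**Figure D2:**
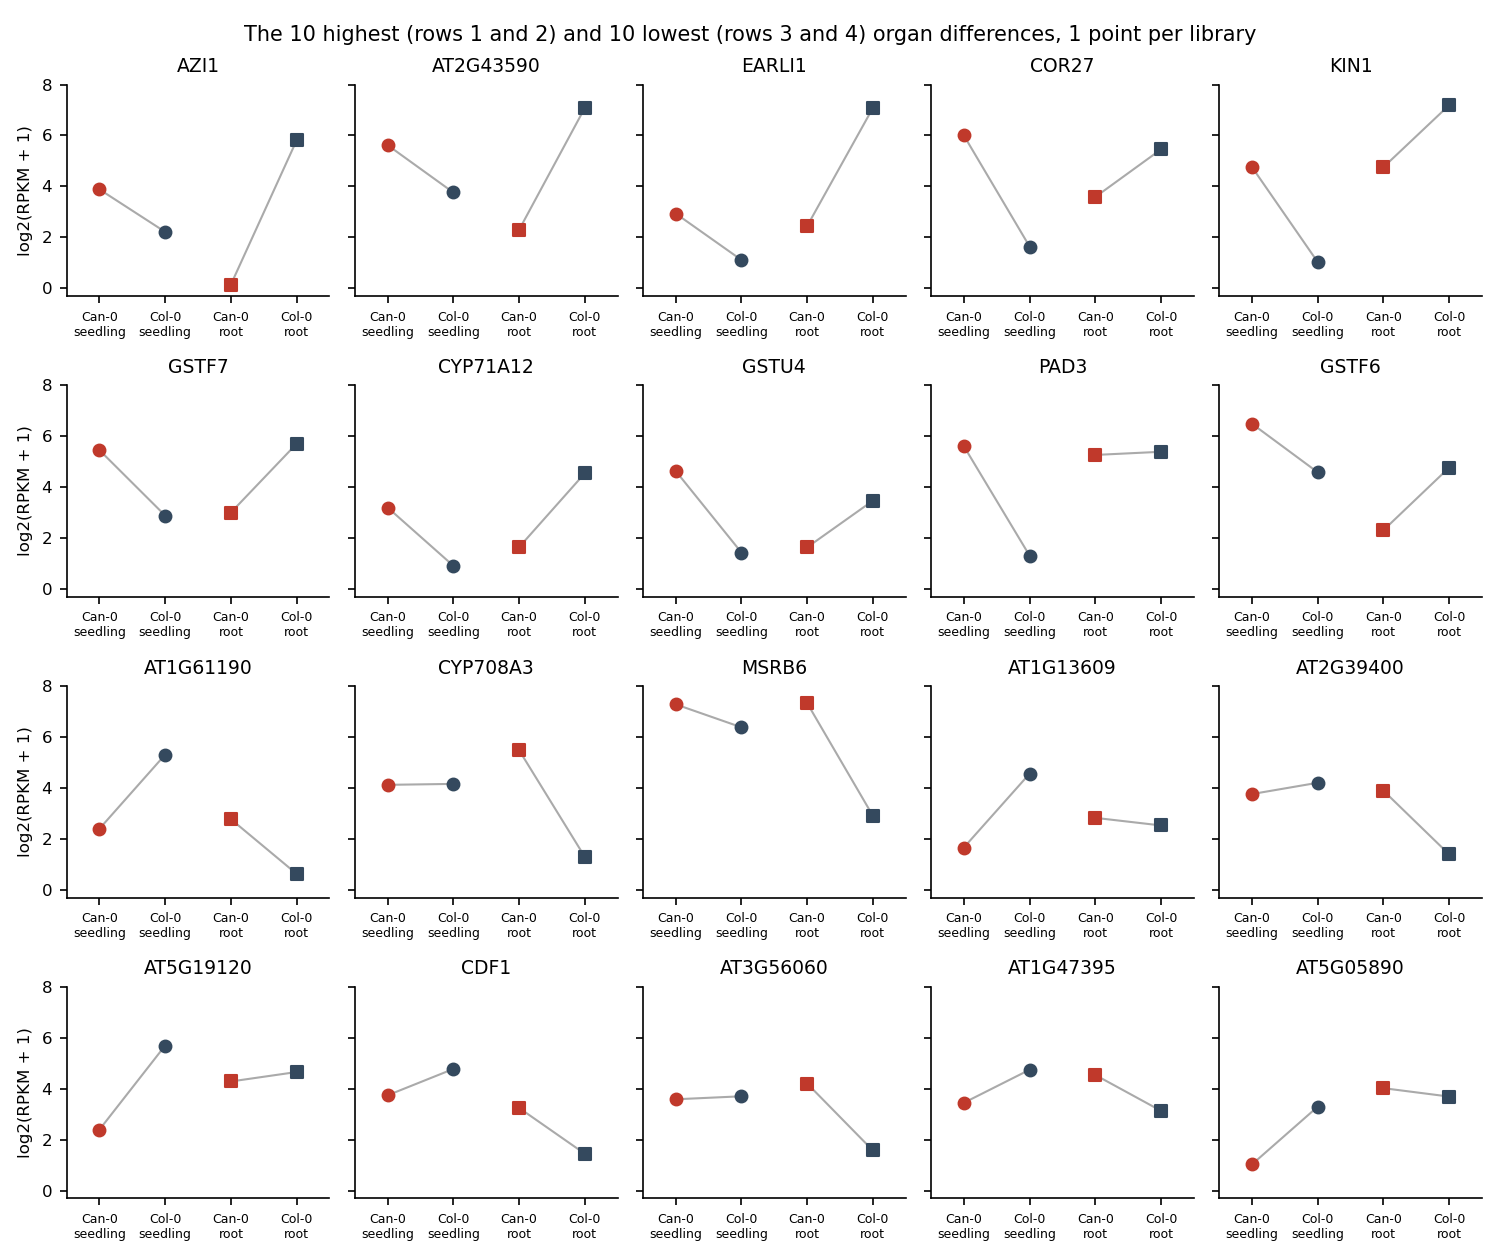
The level of each gene as log2(RPKM + 1) in the Can-0 seedling, Col-0 seedling, Can-0 root and Col-0 root libraries, 1 point per library, for the 10 highest and the 10 lowest organ contrasts; red is Can-0, dark grey is Col-0, circles are seedlings and squares roots. In 9 of the first 10 panels the line between accessions slopes down in seedling and up in root, and PAD3 is level in root.

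Of the camalexin genes that passed, 4 of 5 were higher in Can-0 seedlings by at least 1, and 2 of the 5 were lower in Can-0 roots by at least 1. Of 6 listed genes 5 passed, and 3 had an organ contrast of at least 1, with a median of 4.36 against 0.09 over all genes. CYP71A12 and CYP71A13 make the nitrile precursor indole-3-acetonitrile. CYP71A12 (AT2G30750) had 8.21 RPKM in Can-0 and 0.891 RPKM in Col-0 seedlings, and 2.12 RPKM in Can-0 and 22.3 RPKM in Col-0 roots, so Can-0 was the higher in seedling and the lower in root (organ contrast 5.19 ± 0.38). CYP71A13 (AT2G30770) had 71.2 RPKM in Can-0 against 0.758 RPKM in Col-0 seedlings and 0 RPKM in Can-0 against 0.0812 RPKM in Col-0 roots, and did not pass the filter. PAD3 (AT3G26830), the cytochrome P450 of the last step, had 47.8 RPKM in Can-0 and 1.49 RPKM in Col-0 seedlings, and 37.5 RPKM in Can-0 and 40.9 RPKM in Col-0 roots. The Col-0 seedling library was therefore the low one, while both root libraries and the Can-0 seedling library were within a narrow range (organ contrast 4.42 ± 0.25). GGP1 (AT4G30530), a peptidase that trims the glutathione conjugate, differed by 1.15 in seedling and 0.29 in root. WRKY33 (AT2G38470), a transcription factor that activates PAD3, was lower in Can-0 by 0.45 in both organs, with an organ contrast of 0.00.

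Glutathione S-transferases, which join glutathione to reactive compounds, were counted as a family after their values had been seen. Of 47 genes 20 passed, and the family median was 0.91. An organ contrast of at least 1 was found in 8 (3.90% over all genes) and of at least 2 in 6 (0.801% over all genes). Several of its members were already among the highest organ contrasts when the family was chosen. GSTF6 (AT1G02930), which has a role in camalexin synthesis, had 88.8 RPKM in Can-0 and 23.0 RPKM in Col-0 seedlings, and 3.97 RPKM in Can-0 and 26.3 RPKM in Col-0 roots, an organ contrast of 4.36 ± 0.27. GSTF7 (AT1G02920), next to GSTF6 on chromosome 1, had 42.8 RPKM in Can-0 and 6.4 RPKM in Col-0 seedlings, and 7.03 RPKM in Can-0 and 51.2 RPKM in Col-0 roots, an organ contrast of 5.27 ± 0.28. For GSTF6 the Can-0 libraries held the highest and the lowest value, and for GSTF7 the Can-0 seedling and Col-0 root values were the high pair. GSTU4 (AT2G29460) had 23.8 RPKM in Can-0 and 1.71 RPKM in Col-0 seedlings, and 2.12 RPKM in Can-0 and 10.09 RPKM in Col-0 roots (organ contrast 5.03 ± 0.42), and GSTF2 (AT4G02520), overlapped by an antisense gene, had an organ contrast of 4.33. WRKY transcription factors, counted in the same way, had a family median of 0.20: of 67 genes 17 passed and 2 reached 1. Those 2 were WRKY51 (AT5G64810), with 11.1 RPKM in Can-0 and 2.2 RPKM in Col-0 seedlings, and 1.304 RPKM in Can-0 and 8.04 RPKM in Col-0 roots, and WRKY54 (AT2G40750), described with the salicylic acid genes.

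The cold-regulated genes that passed were higher in Can-0 seedlings and lower in Can-0 roots, while those that did not pass had both directions in seedlings. The proteins of the list, dehydrins and small hydrophilic proteins among them, accumulate in cold and drought and are controlled in part by the CBF transcription factors. Of 16 listed genes 7 passed. All 7 were higher in Can-0 in seedling and lower in Can-0 in root, 6 had an organ contrast of at least 1, and the median was 1.72, made of a median difference of 0.74 in seedling and -1.1 in root. KIN1 (AT5G15960) had 26.1 RPKM in Can-0 and 1.05 RPKM in Col-0 seedlings, and 26.0 RPKM in Can-0 and 145 RPKM in Col-0 roots, an organ contrast of 6.16 ± 0.38. Can-0 had nearly the same level in both organs, and the Col-0 libraries held the lowest and the highest value. The adjacent KIN2 (AT5G15970) had 107 RPKM in Can-0 and 63.6 RPKM in Col-0 seedlings, and 51.6 RPKM in Can-0 and 194 RPKM in Col-0 roots, an organ contrast of 2.62. RD29A (AT5G52310), whose promoter is a classic target of CBF factors, had 61.9 RPKM in Can-0 and 22.3 RPKM in Col-0 seedlings, and 13.0 RPKM in Can-0 and 44.5 RPKM in Col-0 roots, an organ contrast of 3.13 ± 0.14. COR47 (AT1G20440), a dehydrin, had 125 RPKM in Can-0 and 80.9 RPKM in Col-0 seedlings, and 497 RPKM in Can-0 and 1063 RPKM in Col-0 roots, with an organ contrast of 1.72. All 7 were lower in Can-0 floral buds too, with a median difference of -0.78, so among the 3 organs Can-0 had the higher level of these 7 in seedlings only. CBF1, CBF2 and CBF3 did not pass: their highest value over the seedling and root libraries was 2.72 RPKM, for CBF3 (AT4G25480) in Col-0 seedlings. CBF1 had 0.339 RPKM in Can-0 against 2.29 RPKM in Col-0 seedlings, CBF2 had 0.194 RPKM in Can-0 against 2.67 RPKM in Col-0 seedlings and CBF3 had 1.41 RPKM in Can-0 against 2.72 RPKM in Col-0 seedlings, so all 3 were lower in Can-0 seedlings. Of all 9 genes that did not pass, 4 were higher and 5 lower in Can-0 seedlings, and 8 were lower in Can-0 roots. COR15A, which failed for want of root transcript, had 85.8 RPKM in Can-0 against 28.6 RPKM in Col-0 seedlings. RAB18 (AT5G66400), a dehydrin that also failed in roots alone, had the other direction, with 5.24 RPKM in Can-0 against 7.65 RPKM in Col-0 seedlings and 1.63 RPKM in Can-0 against 3.05 RPKM in Col-0 roots.

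COR27 combines cold and clock control, being a cold-induced protein that also represses evening clock genes. COR27 (AT5G42900) had 63.0 RPKM in Can-0 and 2.12 RPKM in Col-0 seedlings, and 11.0 RPKM in Can-0 and 42.9 RPKM in Col-0 roots, an organ contrast of 6.22 ± 0.29. Can-0 was higher in seedling by 4.36, lower in root by a difference of -1.87, and lower in floral bud by a difference of -2.10, with 33.2 RPKM in Can-0 and 145 RPKM in Col-0 floral buds.

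Evening-phased clock genes were higher in Can-0 seedlings, with root differences between -0.76 and 0.56. Of 11 listed genes 10 passed, all 10 were higher in Can-0 in seedling, 6 had an organ contrast of at least 1, and the median was 1.46, made of 1.51 in seedling and 0.14 in root. ELF4, ELF3 and LUX form the evening complex, a transcriptional repressor. ELF4 (AT2G40080) had 99.2 RPKM in Can-0 and 7.35 RPKM in Col-0 seedlings, and 305 RPKM in Can-0 and 269 RPKM in Col-0 roots, an organ contrast of 3.40 ± 0.27. The Col-0 seedling library stood alone at a low value. LUX had 51.1 RPKM in Can-0 against 19.7 RPKM in Col-0 seedlings and 72.9 RPKM in Can-0 against 78.7 RPKM in Col-0 roots, and ELF3, higher in Can-0 seedlings by 0.24 and lower in Can-0 roots by a difference of -0.76, lay just under 1 at 0.999. Among the pseudo-response regulators, which repress morning genes, PRR3 (AT5G60100) had 32.9 RPKM in Can-0 and 5.65 RPKM in Col-0 seedlings, and 17.3 RPKM in Can-0 and 18.5 RPKM in Col-0 roots (organ contrast 2.45), TOC1 (AT5G61380) had an organ contrast of 1.47, and PRR5 (AT5G24470) of 0.95. FKF1 (AT1G68050), a blue-light receptor and F-box protein that times flowering, had 82.3 RPKM in Can-0 and 11.3 RPKM in Col-0 seedlings, and 32.2 RPKM in Can-0 and 21.5 RPKM in Col-0 roots, an organ contrast of 2.19. GRP7 (AT2G21660), a clock-driven RNA-binding protein and the most abundant of the list, had 3654 RPKM in Can-0 and 924 RPKM in Col-0 seedlings, and 4001 RPKM in Can-0 and 3730.3 RPKM in Col-0 roots. Its Col-0 seedling level was again the low one of the 4. In floral buds 8 of the 10 were lower in Can-0, with a median of -0.45.

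Morning-phased clock genes went the other way in the seedling libraries. Of 9 listed genes 4 passed, since the other 5 were under 5 RPKM in both root libraries, and all 4 had a negative organ contrast with a median of -0.80. LNK2 (AT3G54500), a coactivator of evening gene expression, had 25.2 RPKM in Can-0 and 62.0 RPKM in Col-0 seedlings, and 5.90 RPKM in Can-0 and 1.77 RPKM in Col-0 roots, an organ contrast of -2.58 ± 0.22, with antisense genes overlapping it. The other 3, PRR7, RVE4 and LNK1, had organ contrasts of -0.76, -0.84 and -0.23, the last overlapped by an antisense gene. Outside the filter, CCA1, a Myb repressor at the core of the clock, had 4.62 RPKM in Can-0 against 16.7 RPKM in Col-0 seedlings, and PRR9 had 1.98 RPKM in Can-0 against 11.2 RPKM in Col-0 seedlings. Outside the list, CDF1 (AT5G62430), a repressor of CONSTANS that FKF1 marks for degradation, had 12.4 RPKM in Can-0 and 26.4 RPKM in Col-0 seedlings, and 8.49 RPKM in Can-0 and 1.73 RPKM in Col-0 roots, an organ contrast of -2.83 ± 0.33. The labels do not give the hour of harvest, and its part in these differences was not tested.

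**Figure D3:**
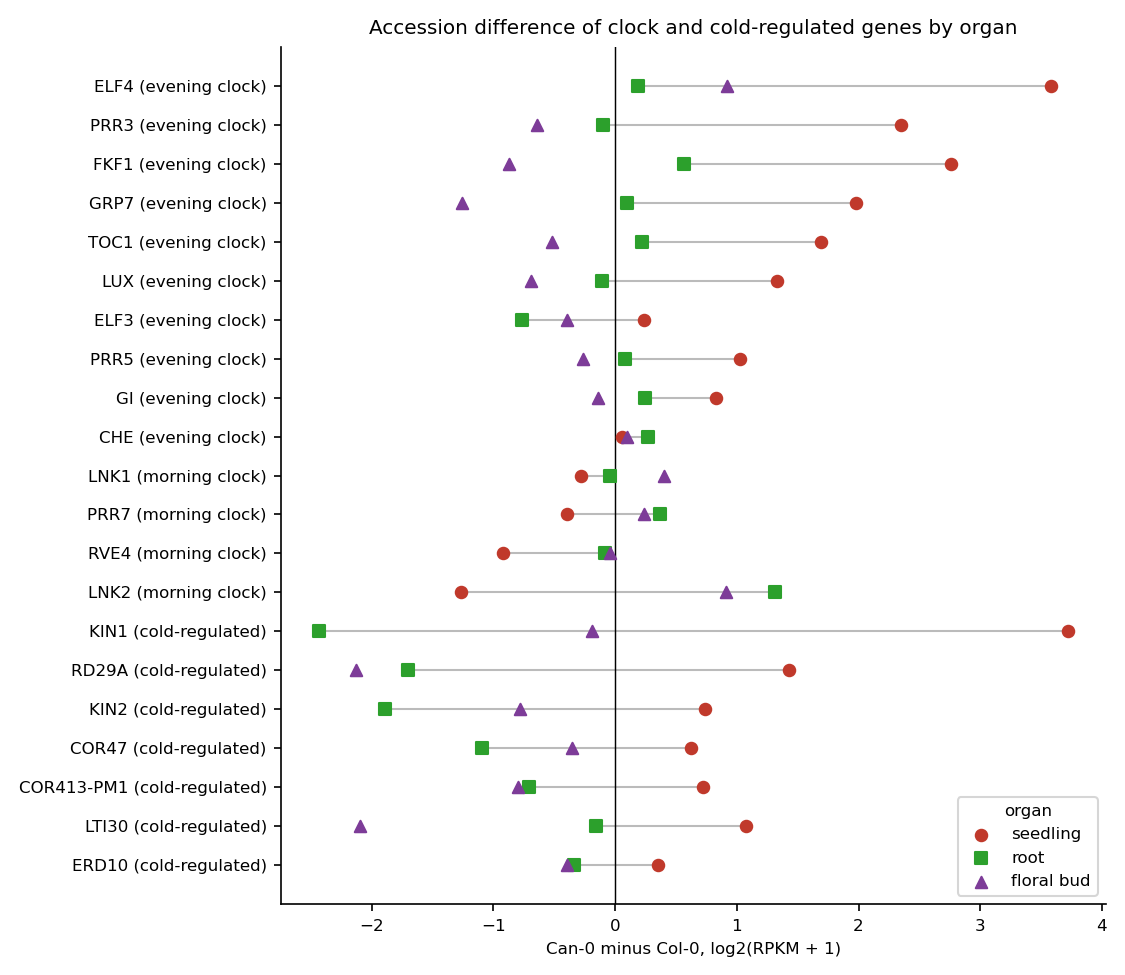
The Can-0 minus Col-0 difference on the log2(RPKM + 1) scale in seedling (red circles), root (green squares) and floral bud (purple triangles) for the 10 evening clock, 4 morning clock and 7 cold-regulated genes that passed. Red circles lie right of 0 for all evening and cold genes and left of 0 for all morning genes, while roots of the cold genes all lie left of 0.

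The evening element, AAAATATCT, is the promoter motif through which morning Myb factors act on evening genes. It was searched for on both strands in the 300 bases before each gene's annotated start in the RefSeq TAIR10.1 assembly, whose sequence is that of the Col-0 lineage and not of Can-0. It was present before 765 of 27443 genes (2.79%) and before 377 of the 11671 genes that passed and had a promoter (3.23%). Of the 94 genes with an organ contrast of at least 2 it was present in 11 (11.7%), and of the 457 at 1 or more in 37 (8.10%). Of the 28 genes at -2 or less 1 held it (3.57%), and of the 234 with a promoter at -1 or less 3 held it (1.28%). Among the 11 genes were EARLI1, FLS1, PCR2, AT4G30650, AT1G65690, BBX8, ERD3, PDC2, FKF1 and ADF5, and the 1 gene was FLC. Of the listed evening clock genes 6 of 11 held it, of the morning clock genes 0 of 9 and of the cold-regulated genes 1 of 16. Of the 3 evening clock genes past 2, FKF1 held it, while ELF4 and PRR3, which had the larger organ contrasts, did not. In the 94 genes and the genes that passed, the G-box CACGTG was present in 7.45% against 7.90%, the CRT core CCGAC, the site of CBF factors, in 18.1% against 15.8%, the W-box core TTGAC of WRKY factors in 53.2% against 49.4%, the heat shock motif GAANNTTC in 12.8% against 10.8%, and the phosphate starvation motif P1BS, GNATATNC, in 11.7% against 6.41%. P1BS and the evening element cannot share bases whichever way the letters are aligned. A match is a description of letters and not of binding.

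FKF1 and BBX8 are shown because they pair the evening element with an organ contrast past 2. An antisense gene overlaps each of them, and the use of strand in counting is not known. Each sequence runs 5′ to 3′ toward the gene's start, with every copy of the element in capitals (AAAATATCT, or AGATATTTT where it lies on the other strand). BBX8 (AT5G48250), a B-box protein of the CONSTANS-like group named here after its values were seen, had 64.8 RPKM in Can-0 and 12.2 RPKM in Col-0 seedlings, and 24.0 RPKM in Can-0 and 28.7 RPKM in Col-0 roots, an organ contrast of 2.57. It held 3 copies, beginning 235, 199 and 18 bases before the start. FKF1 held 1 copy, beginning 186 bases before the start.
FKF1, chr1:25508339-25508638, plus strand: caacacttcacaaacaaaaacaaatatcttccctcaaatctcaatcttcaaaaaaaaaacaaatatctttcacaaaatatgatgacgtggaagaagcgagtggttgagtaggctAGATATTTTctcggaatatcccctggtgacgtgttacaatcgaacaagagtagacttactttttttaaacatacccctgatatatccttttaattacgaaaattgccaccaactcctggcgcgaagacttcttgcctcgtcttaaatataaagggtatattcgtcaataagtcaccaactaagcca
BBX8, chr5:19563833-19564132, minus strand: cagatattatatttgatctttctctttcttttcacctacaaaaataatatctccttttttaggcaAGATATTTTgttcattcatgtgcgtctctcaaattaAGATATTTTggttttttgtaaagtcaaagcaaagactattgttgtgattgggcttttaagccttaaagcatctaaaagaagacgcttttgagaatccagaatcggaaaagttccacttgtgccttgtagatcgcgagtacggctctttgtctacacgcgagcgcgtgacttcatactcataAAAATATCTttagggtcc

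Most aliphatic glucosinolate genes that passed had more transcript in Can-0 seedlings, while the median root difference was -0.08. Of 24 listed genes 17 passed. Of these, 14 were higher in Can-0 seedlings, 6 by at least 1, and 1 was lower by at least 1. All 17 had a positive organ contrast and 10 reached 1, against 3.90% of all genes, with a median of 1.02. The lowest, FMOGS-OX5, was at 0.03 ± 0.16, so its sign was within counting error. In the side-chain elongation steps, BCAT4 (AT3G19710), the aminotransferase that opens the pathway, had 458 RPKM in Can-0 and 153 RPKM in Col-0 seedlings, and 176 RPKM in Can-0 and 169 RPKM in Col-0 roots, an organ contrast of 1.52. IPMI1 and IPMI2, isomerase subunits of the same cycle, had organ contrasts of 1.86 and 1.47 with root differences of -0.18 and -0.11. MAM1 (AT5G23010), a synthase that sets chain length, had 139 RPKM in Can-0 and 195 RPKM in Col-0 seedlings, and 2.37 RPKM in Can-0 and 28.0 RPKM in Col-0 roots, an organ contrast of 2.62. Here the Can-0 root library was the low one. Its tandem partner MAM3 (AT5G23020) had 73.2 RPKM in Can-0 and 15.4 RPKM in Col-0 seedlings, and 276 RPKM in Can-0 and 177 RPKM in Col-0 roots, with Can-0 higher in both organs. In core synthesis, CYP83A1 had an organ contrast of 1.02 and the sulfotransferase SOT18 of 0.98. In side-chain modification, FMOGS-OX3 (AT1G62560), an S-oxygenase, had 37.9 RPKM in Can-0 and 63.3 RPKM in Col-0 seedlings, and 0.526 RPKM in Can-0 and 8.77 RPKM in Col-0 roots, lower in Can-0 in both organs. AT2G25450, annotated as a 2-oxoglutarate-dependent oxygenase, had 4.104 RPKM in Can-0 and 172 RPKM in Col-0 seedlings, and 0.793 RPKM in Can-0 and 324 RPKM in Col-0 roots. Can-0 was far lower in both organs, by differences of -5.08 in seedling and -7.50 in root, which gives an organ contrast of 2.42. AOP2 was not analysed here.

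Of 15 indole glucosinolate genes 10 passed, with a median of 0.85. An organ contrast of at least 1 was found in 2 and of at most -1 in 1 (3.90% and 2.04% over all genes). CYP79B2 (AT4G39950), which makes the oxime shared with camalexin, had 41.1 RPKM in Can-0 and 27.4 RPKM in Col-0 seedlings, and 66.2 RPKM in Can-0 and 103 RPKM in Col-0 roots, an organ contrast of 1.2. IGMT2, a methyltransferase with a near-identical copy, had 1.86, and CYP81F2 (AT5G57220), a hydroxylase of the indole ring, had 6.10 RPKM in Can-0 and 2.79 RPKM in Col-0 seedlings, and 40.1 RPKM in Can-0 and 9.94 RPKM in Col-0 roots, an organ contrast of -1.01. Among 15 breakdown genes 5 passed with a median of -0.04, and NSP4, a nitrile specifier with a near-identical copy, was the 1 past -1 (-1.09). Of the 10 that did not pass, 1 had an organ contrast of at least 1 and 3 of at most -1. ESP had 2064 RPKM in Can-0 against 13.5 RPKM in Col-0 seedlings (6.54). TGG2 had 1.87 RPKM in Can-0 against 326 RPKM in Col-0 seedlings (-6.83). ESM1 had 48.3 RPKM in Can-0 against 349 RPKM in Col-0 seedlings (-2.79). ESP, TGG2 and ESM1 had at most 0.527 RPKM in roots, and BGLU22 was at -1.48.

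Salicylic acid defence genes were higher in Can-0 seedlings in 8 of the 9 that passed, of 24 listed. An organ contrast of at least 1 was found in 6 and none had at most -1 (3.90% and 2.04% over all genes). The median was 1.1, made of 1.57 in seedling and 0.19 in root. WRKY54 (AT2G40750), a regulator of this pathway, had 35.7 RPKM in Can-0 and 8.46 RPKM in Col-0 seedlings, and 2.25 RPKM in Can-0 and 6.77 RPKM in Col-0 roots, an organ contrast of 3.21 ± 0.33. Can-0 was the higher in seedling and the lower in root. GRX480 (AT1G28480), a glutaredoxin that works with TGA factors, had 8.18 RPKM in Can-0 and 0.957 RPKM in Col-0 seedlings, and 13.0 RPKM in Can-0 and 11.2 RPKM in Col-0 roots, an organ contrast of 2.03 ± 0.46. NIMIN2 (AT3G25882), a partner of the receptor NPR1, had 48.7 RPKM in Can-0 and 13.2 RPKM in Col-0 seedlings, and 25.3 RPKM in Can-0 and 24.3 RPKM in Col-0 roots, an organ contrast of 1.75. EDS1 (AT3G48090), a hub of NLR signalling, had 44.1 RPKM in Can-0 and 14.2 RPKM in Col-0 seedlings, and 30.9 RPKM in Can-0 and 22.1 RPKM in Col-0 roots, an organ contrast of 1.1. In each of the last 3 the Col-0 seedling library was the lowest of the 4. The pathogenesis-related markers PR1, PR2 and PR5 were listed at 0 in both roots and therefore failed the filter, with 248 RPKM in Can-0 against 72.7 RPKM in Col-0 seedlings for PR1.

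A further seedling-only gene lies beside ACD6, an ankyrin protein of salicylic acid signalling known for allelic variation. AT4G14390, itself annotated as an ankyrin repeat protein, had 25.4 RPKM in Can-0 and 0.360 RPKM in Col-0 seedlings, and 5.53 RPKM in Can-0 and 5.17 RPKM in Col-0 roots, an organ contrast of 4.20 ± 0.28. The seedling libraries held the highest and the lowest value and the roots were level. ACD6 (AT4G14400) had 42.7 RPKM in Can-0 against 54.1 RPKM in Col-0 seedlings and failed the filter in roots. AT2G21100, a dirigent-like protein overlapped by an antisense gene, had 13.2 RPKM in Can-0 and 0.421 RPKM in Col-0 seedlings, and 45.2 RPKM in Can-0 and 44.5 RPKM in Col-0 roots, an organ contrast of 3.3. Of the NLR immune receptors, 10 of 29 passed with a median of 0.09. Among those that passed, SNC1 (AT4G16890) was the 1 past -1 (-1.66). It had 8.83 RPKM in Can-0 and 44.3 RPKM in Col-0 seedlings, and 4.05 RPKM in Can-0 and 6.39 RPKM in Col-0 roots. Of the 19 that did not pass, 6 had an organ contrast of at most -1 and 1 of at least 1, VICTR at 2.33. Among the 6, RLM3 had 6.76 RPKM in Can-0 against 124 RPKM in Col-0 seedlings (-3.78). RPP4 and RPP5, also among them, had -2.68 and -1.67.

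Jasmonate genes were higher in Can-0 seedlings. Of 25 listed genes 11 passed, all 11 were higher in Can-0 seedlings, as were the 14 that did not pass, 5 had an organ contrast of at least 1, and the median was 0.89. VSP1 (AT5G24780), a vegetative storage protein that jasmonate induces, had 74.6 RPKM in Can-0 and 9.77 RPKM in Col-0 seedlings, and 77.03 RPKM in Can-0 and 128 RPKM in Col-0 roots, an organ contrast of 3.54 ± 0.18. The adjacent VSP2 (AT5G24770) had an organ contrast of 2.28. In synthesis, AOC2 (AT3G25770), an allene oxide cyclase, had 342 RPKM in Can-0 and 117 RPKM in Col-0 seedlings, and 7.89 RPKM in Can-0 and 9.24 RPKM in Col-0 roots, an organ contrast of 1.75, and OPR3 (AT2G06050), the peroxisomal reductase, had an organ contrast of 1.52. The Can-0 seedling library was the highest of the 4 for AOC2 and OPR3. LOX2, a chloroplast lipoxygenase, had 960.5 RPKM in Can-0 against 234 RPKM in Col-0 seedlings but at most 0.03 RPKM in roots. The master regulator MYC2 had an organ contrast of 0.07.

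Of 21 listed flavonoid genes 5 passed, all 5 were lower in Can-0 roots, and 4 had an organ contrast of at least 1, with a median of 1.69 made of 0.10 in seedling and -2.26 in root. FLS1 (AT5G08640), flavonol synthase, had 29.9 RPKM in Can-0 and 19.0 RPKM in Col-0 seedlings, and 30.6 RPKM in Can-0 and 157 RPKM in Col-0 roots, an organ contrast of 2.95 ± 0.16. Chalcone isomerase (AT3G55120) had 34.3 RPKM in Can-0 and 32.1 RPKM in Col-0 seedlings, and 25.6 RPKM in Can-0 and 145 RPKM in Col-0 roots, an organ contrast of 2.55. CHS (AT5G13930), chalcone synthase, the entry enzyme, had 38.8 RPKM in Can-0 and 85.2 RPKM in Col-0 seedlings, and 88.0 RPKM in Can-0 and 427 RPKM in Col-0 roots, lower in Can-0 in both organs (organ contrast 1.15), with an antisense gene overlapping it. Col-0 roots held the highest level in each of these 3. In floral buds all 5 genes were higher in Can-0, by a median of 0.75. Of the 16 that did not pass, 13 were lower in Can-0 seedlings and 13 in Can-0 roots, with 3 organ contrasts of at least 1 and 3 of at most -1. MYB12, a factor that activates flavonol genes, failed in seedlings and had 17.2 RPKM in Can-0 against 49.0 RPKM in Col-0 roots, an organ contrast of 1.27. A further 4 failed in roots and differed by more than 1 in size in seedlings. DFR, dihydroflavonol reductase, had 11.9 RPKM in Can-0 against 37.8 RPKM in Col-0 seedlings, and LDOX, the next enzyme, had 17.58 RPKM in Can-0 against 45.2 RPKM in Col-0 seedlings, with organ contrasts of -1.37 and -1.27. TT19, a glutathione S-transferase of anthocyanin transport, had 9.09 RPKM in Can-0 against 21.6 RPKM in Col-0 seedlings, an organ contrast of -0.77. MYBL2, a repressor of anthocyanin synthesis, had 40.6 RPKM in Can-0 and 83.7 RPKM in Col-0 seedlings, and 2.04 RPKM in Can-0 and 0.672 RPKM in Col-0 roots, an organ contrast of -1.89. These 4 were thus lower in Can-0 seedlings, and the last was higher in Can-0 roots.

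Other genes differed in roots alone. XTH7 (AT4G37800), an enzyme that remodels cell wall xyloglucan, had 144 RPKM in Can-0 and 142 RPKM in Col-0 seedlings, and 2.11 RPKM in Can-0 and 25.8 RPKM in Col-0 roots, an organ contrast of 3.12 ± 0.27. The seedling libraries were level and the Can-0 root library was the low one. TCH3 (AT2G41100), a calmodulin-like protein induced by touch and overlapped by antisense genes, had 78.9 RPKM in Can-0 and 71.1 RPKM in Col-0 seedlings, and 2.18 RPKM in Can-0 and 13.4 RPKM in Col-0 roots, an organ contrast of 2.33. In the touch list 8 of 14 genes passed, with a median of 0.08. Of these, 2 were at 1 or more and 1 at -1 or less (3.90% and 2.04% over all genes). Of the 14 root-only genes with a positive organ contrast and at least 5 RPKM in a bud library, 11 differed by under 1 between accessions in bud.

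Negative organ contrasts past 2 were led by genes of varied function. AT1G61190, annotated as an NB-ARC and leucine-rich repeat disease resistance protein, had the lowest value of all, with 4.28 RPKM in Can-0 and 38.6 RPKM in Col-0 seedlings, and 5.85 RPKM in Can-0 and 0.547 RPKM in Col-0 roots. Can-0 was lower in seedling and higher in root (organ contrast -5.05 ± 0.20). CYP708A3 (AT1G78490), a cytochrome P450 whose relative CYP708A2 acts in root triterpene synthesis, had 16.4 RPKM in Can-0 and 16.9 RPKM in Col-0 seedlings, and 43.8 RPKM in Can-0 and 1.46 RPKM in Col-0 roots, an organ contrast of -4.22 ± 0.20. The seedling libraries were level and the Col-0 root library was low. MSRB6 (AT4G04840), a methionine sulfoxide reductase that repairs oxidised protein, had 154 RPKM in Can-0 and 82.3 RPKM in Col-0 seedlings, and 159.6 RPKM in Can-0 and 6.51 RPKM in Col-0 roots, an organ contrast of -3.52 ± 0.22, again with the Col-0 root library as the low one. AT2G39400, a hydrolase of the alpha/beta family, had an organ contrast of -2.94, and AT3G56060, a GMC oxidoreductase, of -2.74, both with root differences above 2 and seedling differences under 0.5 in size. Seedling differences carried the values of 3 more: AT1G13609, a defensin-like protein, had 2.17 RPKM in Can-0 and 22.6 RPKM in Col-0 seedlings, and 6.10 RPKM in Can-0 and 4.77 RPKM in Col-0 roots (-3.19 ± 0.62); AT5G19120, an aspartyl protease family protein, had an organ contrast of -2.93; and AT5G05890, a glycosyltransferase, of -2.59. In these 3 the Can-0 seedling library was the lowest of the 4.

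Of 29 listed iron genes 11 passed, 3 had an organ contrast of at least 1 and 4 of at most -1, with a median of -0.53. Those at 1 or more were the ferritins, which store iron. FER1 (AT5G01600), overlapped by an antisense gene, had 62.0 RPKM in Can-0 and 26.2 RPKM in Col-0 seedlings, and 59.4 RPKM in Can-0 and 114 RPKM in Col-0 roots, an organ contrast of 2.15, and FER4, which another gene overlaps, and FER3 had 1.89 and 1.01. The 4 at -1 or less were a pair of adjacent genes that RefSeq lists as uncharacterised proteins and a pair of nicotianamine synthases, which make a metal chelator. AT1G47395 had 9.91 RPKM in Can-0 and 25.8 RPKM in Col-0 seedlings, and 22.2 RPKM in Can-0 and 7.77 RPKM in Col-0 roots, an organ contrast of -2.70 ± 0.34, and the adjacent AT1G47400 had 17.8 RPKM in Can-0 and 24.4 RPKM in Col-0 seedlings, and 28.2 RPKM in Can-0 and 6.48 RPKM in Col-0 roots, an organ contrast of -2.41. Both were lower in Can-0 seedlings and higher in Can-0 roots. NAS4 (AT1G56430) had 22.3 RPKM in Can-0 and 22.9 RPKM in Col-0 seedlings, and 23.51 RPKM in Can-0 and 6.29 RPKM in Col-0 roots, an organ contrast of -1.78, and NAS1 had -1.40. All 4 were thus higher in Can-0 roots and the ferritins lower. Of the 18 that did not pass, 15 were higher and 3 lower in Can-0 roots, none had an organ contrast of at least 1 and 6 had at most -1. IRT1, the root iron importer, failed the filter with 0 RPKM in Can-0 against 0.0596 RPKM in Col-0 seedlings, and had 80.1 RPKM in Can-0 against 41.5 RPKM in Col-0 roots.

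Nitrogen and sulfur assimilation genes that passed had more organ contrasts of at most -1 than of at least 1. Of 20 nitrogen genes 14 passed, 2 had 1 or more and 4 had -1 or less, with a median of -0.50. NIA2 (AT1G37130), the main nitrate reductase, had 76.1 RPKM in Can-0 and 215 RPKM in Col-0 seedlings, and 194 RPKM in Can-0 and 168 RPKM in Col-0 roots, an organ contrast of -1.69, and NIA1 had -1.50. LBD38, a repressor of nitrogen genes, had -1.35. In all 3 the Can-0 seedling library was below the Col-0 one. GLN1;1 (AT5G37600), a cytosolic glutamine synthetase, had the opposite sign, with 122 RPKM in Can-0 and 49.4 RPKM in Col-0 seedlings, and 320.3 RPKM in Can-0 and 457 RPKM in Col-0 roots (organ contrast 1.8). Of the 6 nitrogen genes that did not pass, ASN1, an asparagine synthetase, was the 1 past 1 in size, at 2.59 with 0.0176 RPKM in Can-0 against 15.3 RPKM in Col-0 roots. Of 17 sulfur genes 13 passed, 1 had 1 or more and 6 had -1 or less, with a median of -0.63. APR2 (AT1G62180), a reductase of activated sulfate overlapped by antisense genes, had 56.2 RPKM in Can-0 and 129 RPKM in Col-0 seedlings, and 77.05 RPKM in Can-0 and 57.2 RPKM in Col-0 roots, an organ contrast of -1.61, and APR3 had -1.29. LSU1 (AT3G49580), a sulfur deficiency response gene, had 22.1 RPKM in Can-0 and 32.1 RPKM in Col-0 seedlings, and 151 RPKM in Can-0 and 75.2 RPKM in Col-0 roots, an organ contrast of -1.51, and SDI1 (AT5G48850), which represses glucosinolate synthesis under low sulfur, had -1.55. Higher transcript in Can-0 roots was common to these 4. SULTR2;1, a vascular sulfate transporter, was the 1 gene at 1 or more (1.68), with 5.08 RPKM in Can-0 against 13.8 RPKM in Col-0 roots.

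FLC, a repressor of flowering, showed an organ contrast without a change of direction. FLC (AT5G10140), overlapped by an antisense gene, had 104 RPKM in Can-0 and 4.85 RPKM in Col-0 seedlings, and 106 RPKM in Can-0 and 0.124 RPKM in Col-0 roots, with 27.8 RPKM in Can-0 and 0.123 RPKM in Col-0 floral buds. Can-0 levels were alike in seedling and root, and the organ contrast of -2.42 ± 0.28 went with a Col-0 level that was higher in seedling than in root. With Col-0 root near 0 RPKM, the organ contrast was -3.14 with a pseudocount of 0.5 and -0.98 with one of 5. Of 25 flowering genes 10 passed and FLC was the only one past 1 in size, with a median of -0.16. SOC1, which FLC represses, had 1.95 RPKM in Can-0 and 25.1 RPKM in Col-0 seedlings, and 0.959 RPKM in Can-0 and 11.9 RPKM in Col-0 roots, and its organ contrast was -0.42. MAF3, a relative of FLC, was likewise lower in Can-0 in both organs, with an organ contrast of -0.20.

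Several lists showed few organ contrasts of size. Over all genes that passed, 5.93% reached 1 in size, so 0 or 1 such gene in a short list is near that share. No gene reached 1 in size among 7 of 18 phosphate starvation genes that passed (median -0.15), 6 of 10 type-A response regulators of cytokinin signalling (0.28), 6 of 11 DNA methylation genes (0.19), 10 of 10 cell division genes (-0.10) and 12 of 12 reference genes (0.12). A gene did among 8 of 12 Aux/IAA and GH3 genes that passed, IAA3, overlapped by an antisense gene, at 1.12, and 1 among 15 of 18 aquaporins, PIP2;6 at 1.04, with medians of 0.27 and -0.14. In the list of light and carbon status 5 of 12 passed with a median of -0.45, and the homeobox gene HB-2 was at -1.49. Only 3 of 15 heat shock genes passed, HSP70 at 1.35, HSP90.1 at -1.02 and ROF2, a co-chaperone, at -1.63. LBD transcription factors, counted as a family after the values had been seen, had 4 of 35 genes pass, with 2 at -1 or less and a median of -0.98.

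**Figure D4:**
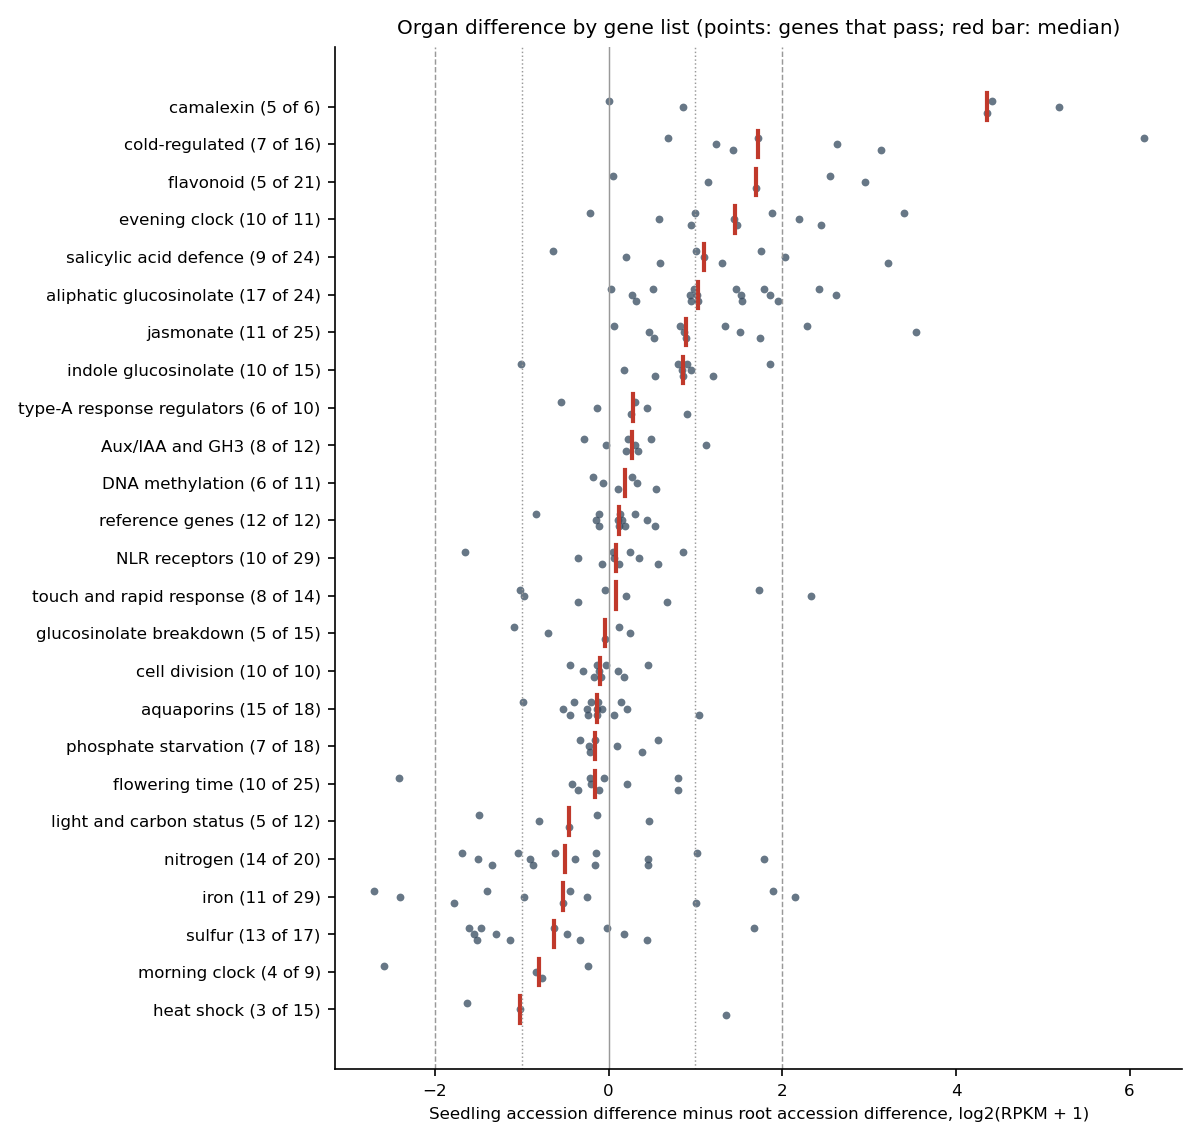
The organ contrast, seedling accession difference minus root accession difference on the log2(RPKM + 1) scale, of each gene that passed in 25 gene lists, with passing and listed genes in brackets and the list median as a red bar. Camalexin, cold-regulated, flavonoid and evening clock lists have the highest medians, and sulfur, morning clock and heat shock lists the lowest; dotted and dashed lines mark sizes of 1 and 2.

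Root triterpene genes are not among the genes counted here because none of the 9 listed genes passed. THAS1, the thalianol synthase, had 0.243 RPKM in Can-0 against 274 RPKM in Col-0 roots, and 0 RPKM in Can-0 against 0.193 RPKM in Col-0 seedlings. The marneral synthase MRN1 had the opposite direction, with 74.1 RPKM in Can-0 against 34.7 RPKM in Col-0 roots, and was listed at 0 in both seedling libraries.

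Genes past 2 were sometimes neighbours. Of 5543 pairs of adjacent genes that both passed, 6 pairs were both past 2 in size and all 6 had the same sign within the pair. They were AZI1 with EARLI1, KIN1 with KIN2, GSTF7 with GSTF6, VSP2 with VSP1, NAC003 with NAC004, and AT1G47395 with AT1G47400. Several pairs, such as GSTF7 with GSTF6, are of the same family, and how reads were shared among similar genes is not given. The values within such a pair may not be separate measurements. Of the 122 genes, 21 overlap another annotated gene, 19 of them on the opposite strand, and 2 have a near-identical copy.

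The floral bud libraries gave a further comparison, in which accession and run (35 for Can-0, 36 for Col-0) cannot be told apart. Of the 94 genes with an organ contrast of at least 2, 68 reached 5 RPKM in a bud library, of which 17 differed by 1 or more (25%), 7 by -1 or less (10.3%) and 44 by less, with a median of 0.10. Over all 11346 genes measured in bud the shares were 1.47% and 1.94%, and at a size of 2 they were 0.414% and 0.529%. Of the 28 negative genes 21 were measured in bud, with 2 at 1 or more, 6 at -1 or less and a median of -0.14. Among the seedling-only genes higher in Can-0, 8 of 23 were at 1 or more in bud and 3 at -1 or less. An example of the 8 was the serine carboxypeptidase-like gene SCPL12, with 60.4 RPKM in Can-0 and 1.15 RPKM in Col-0 floral buds, and of the 3 AT5G23240, a DnaJ-domain protein overlapped by antisense genes, with 27.3 RPKM in Can-0 and 61.2 RPKM in Col-0 floral buds, both named after their values were seen. Across genes, which are not independent replicates and share 1 library per accession and organ, the accession difference correlated at r = 0.518 between seedling and root, 0.625 between seedling and bud and 0.621 between root and bud.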

How the data were processed

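The deposited files hold 1 RPKM value per gene model and library, computed by the authors as reads per kilobase of exon model scaled to mapped reads, per the file headers. Builds TAIR 9 and TAIR 10 appear in the submitters' processing notes, with no step tied to either. How reads were aligned, shared among similar genes or assigned to a strand is not given in the sources. Depth was estimated from the step between small values (50.0% to 63.4% of values under 8 reads were whole within 0.1).

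Differences were taken on log2(RPKM + 1), with a pseudocount of 1, for genes with 5 RPKM in a seedling and in a root library. With 1 library per group no test was made, and sizes of 2 and 1 were used to count genes. The members and the 26 gene lists (427 genes) were chosen with earlier results of these data known. Named genes are the 10 highest and 10 lowest nuclear genes, the 5 opposite genes with the largest smaller difference, 4 seedling-only and 4 root-only genes with under 0.5 in the other organ, and up to 4 genes of each list; others are named as examples. RefSeq TAIR10.1 gave symbols (28009 of 28775 identifiers matched), promoters and transcripts for BLAST+ 2.17.0 (near-identical: 95% identity over 50% of length). Scripts ran in Python 3.11.15 with pandas 2.3.3 and were tested on simulated data. The 9 alternatives fixed with the design changed the pseudocount, filter, scaling and copies, and 1 was added later.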

Additional observations from a re-analysis of the deposited data

Results flagged for a closer look

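In 16 of the named genes the accession difference was at least 1 in both organs and ran in opposite directions, with 1 library per group, and the difference between organs was not tested. The organ contrasts, seedling difference minus root difference on the log2(RPKM + 1) scale, follow in order of size for the 12 with Can-0 higher in seedling and lower in root. They were 7.32 for AZI1, 6.64 for the chitinase family gene AT2G43590, 6.45 for EARLI1, 6.22 for COR27, 6.16 for KIN1 and 5.27 for GSTF7. The next were 5.19 for CYP71A12, 5.03 for GSTU4, 4.36 for GSTF6, 4.33 for GSTF2, 3.21 for WRKY54 and 3.13 for RD29A. The 4 with Can-0 lower in seedling and higher in root were LNK2 at -2.58, AT1G47395 at -2.70, CDF1 at -2.83 and AT1G61190 at -5.05.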

How the results depend on the processing

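The counts of genes with an organ contrast of 2 or more, -2 or less, 1 or more and -1 or less were 94, 28, 457 and 239. They became 43, 9, 282 and 133 with a pseudocount of 5, 168, 63, 769 and 466 with a minimum of 1 RPKM, 40, 12, 188 and 73 with a minimum of 20 RPKM, and 288, 145, 1194 and 845 with no filter. These alternatives change the scale or the number of genes by construction. With a pseudocount of 0.5, median centring, quantile normalization, scaling to nuclear genes, no near-identical copies, or no genes near the shoot marker share in root (added after the data were seen), each count stayed within 1.5 times: 79 to 106, 26 to 40, 373 to 506 and 225 to 318. Of the 122 genes past 2, 51 kept that size with a pseudocount of 5, 111 with median centring and 107 with quantile normalization. A minimum of 20 RPKM kept 52 of the 122, and the rest were left out by that filter with no change of value. Of 118 named genes, 74 were past 1 in size and none of these changed sign under any alternative run. Most alternatives could not have changed a sign. The filter, copy and shoot marker settings leave the value of a kept gene as it was, and median centring shifts all values alike by a small amount. No replicate could be left out, as each group has 1 library. No paired analysis was possible because every group holds only replicate 1. Genes under 5 RPKM in both libraries of an organ, such as PR1 or THAS1, are outside the 11729 genes. For some of them an organ contrast is given above and marked as not passing.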
